A study of Mus musculus with 4 samples.

Results

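The receptors through which the colony-stimulating factors and their relatives act were followed in blood monocytes, as the 7 genes *Csf1r*, *Csf2ra*, *Csf2rb*, *Csf2rb2*, *Csf3r*, *Flt3* and *Kit*, together with *Csf1*, the gene of the CSF1 ligand. These 8 genes were listed by symbol, with earlier results of these data known. All 8 were found among the 23995 gene symbols of the deposited expression table. Ly6Chi and Ly6Clo monocytes had been isolated from the blood of *Rbpj*+/+*Lyz2*cre/cre control mice and of *Rbpj*fl/fl*Lyz2*cre/cre mice, called RBP-J-deficient here, and their RNA was sequenced as 4 libraries, 1 for each subset and genotype. The control libraries are titled WT, with Lyz2-Cre as their genotype label, so both genotypes carried the Cre allele in place of *Lyz2* and differed in the floxed *Rbpj* alleles. *Lyz2*-driven Cre acts in monocytes, macrophages and neutrophils and begins during their development in the bone marrow. The study's methods describe mice aged 7 to 12 weeks, matched for age and gender, and the sources used here give neither the number of mice behind a library nor its exact sorting gate. CD115, the protein of *Csf1r*, is among the antibodies with which the study marks monocytes in its flow cytometry, so *Csf1r* may have helped to choose the cells in which it was then measured. With 1 library per group no difference below has a replicate check, no test was made, and every value describes these 4 libraries. The deposited unit is FPKM, fragments scaled to transcript length and to the mapped fragments of the library, which corrects for transcript length, so that levels of different genes can be set side by side within a library. Its read depth is unknown.

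CSF1R, FLT3 and KIT are receptor tyrosine kinases of a single family, which pair up when CSF1 or IL-34, FLT3 ligand, or stem cell factor binds them. CSF1R carries the survival signal on which circulating monocytes, and Ly6Clo monocytes above all, depend. The receptor for GM-CSF instead joins a ligand-specific alpha chain, CSF2RA, to the beta chain encoded by *Csf2rb*, which the IL-3 and IL-5 receptors also use, while the mouse has an additional, IL-3-specific beta chain encoded by *Csf2rb2*. CSF3R, the receptor for G-CSF, is best known from neutrophils, FLT3 from dendritic cells and their progenitors, and KIT from haematopoietic progenitors and mast cells.

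The libraries were checked before the receptors were read. *Rbpj* itself was at an FPKM of 8.30 in Ly6Clo and 14.4 in Ly6Chi monocytes of control mice, and at 2.43 and 2.85 in those of RBP-J-deficient mice, so it was lower in both libraries labelled as deficient. The summed FPKM of 6 of 7 general monocyte markers found (*Cd68*, *Lyz2*, *Cx3cr1* and others, with *Csf1r* among them) ranged from 1764 to 2560. Most of each sum came from *Cd68*, at 1173 to 2108. In deficient Ly6Clo monocytes *Csf1r* was at least 2-fold lower than in control and *Lyz2* at least 2-fold higher, with log2 ratios of -1.36 and 1.35. The other 4 were within 2-fold. The 5 Ly6Chi markers summed to 4625 and 3922 in the Ly6Chi libraries and to 111 in control Ly6Clo monocytes, but deficient Ly6Clo monocytes reached 651, where all 5 were at least 2-fold higher than in control. The 6 Ly6Clo markers summed to 2262 in control Ly6Clo monocytes against 1599 in deficient ones, and 3 of the 6 were at least 2-fold lower and 1, *Cd36*, at least 2-fold higher in the latter. Both sums of the deficient Ly6Clo library lay between those of the control subsets, whereas *Nr4a1* (65.6), *Ace* (17.7) and *Cd36* (945) lay outside the range of the controls. *Nr4a1* was at 618 in control Ly6Clo and 214 in control Ly6Chi monocytes. The paper, by contrast, reports similar Nr4a1 in Ly6Clo monocytes of both genotypes, measured by flow cytometry and qPCR. The part of these markers in the receptor values below was not tested. Erythrocyte transcripts, 4 of 5 listed genes found, summed to 1582 in control Ly6Clo monocytes against 276 to 387 in the other libraries. The 4 T cell genes found summed to at most 1.89 the 5 NK cell genes to at most 2.27 and the 3 eosinophil genes to at most 1.12. The 5 B cell genes, mostly *Cd79b*, summed to at most 101, the 6 progenitor genes to at most 32.1 and the 4 platelet genes to between 121 and 340.

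Monocytes of every group carried transcripts of 2 receptor genes above all. *Csf1r* and *Csf2ra* together held 91.4% of the summed FPKM of the 8 genes in control Ly6Clo, 80.5% in RBP-J-deficient Ly6Clo, 86.2% in control Ly6Chi and 84.9% in RBP-J-deficient Ly6Chi monocytes. In the control Ly6Clo library the order of the levels was *Csf1r*, *Csf2ra*, *Csf2rb*, *Csf3r*, *Flt3*, *Csf2rb2*, *Csf1* and *Kit*, and in control Ly6Chi it was *Csf2ra*, *Csf1r*, *Csf3r*, *Csf2rb*, *Flt3*, *Csf2rb2*, *Csf1* and *Kit*. Whether neighbours in these orders differ beyond the spread between animals cannot be told from single libraries. The summed FPKM of the 8 genes was 772 in Ly6Clo and 793 in Ly6Chi monocytes of control mice, and 341 and 571 in those of deficient mice. In bulk RNA, fewer cells of a type and less RNA per cell cannot be told apart, and this holds for every level given here. *Kit* and *Csf1* stayed under an FPKM of 1 in all 4 libraries, and 6 of the 8 genes passed that minimum in at least 1 library, as did 10240 of all symbols, which are called expressed genes below.

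**Figure D1:**
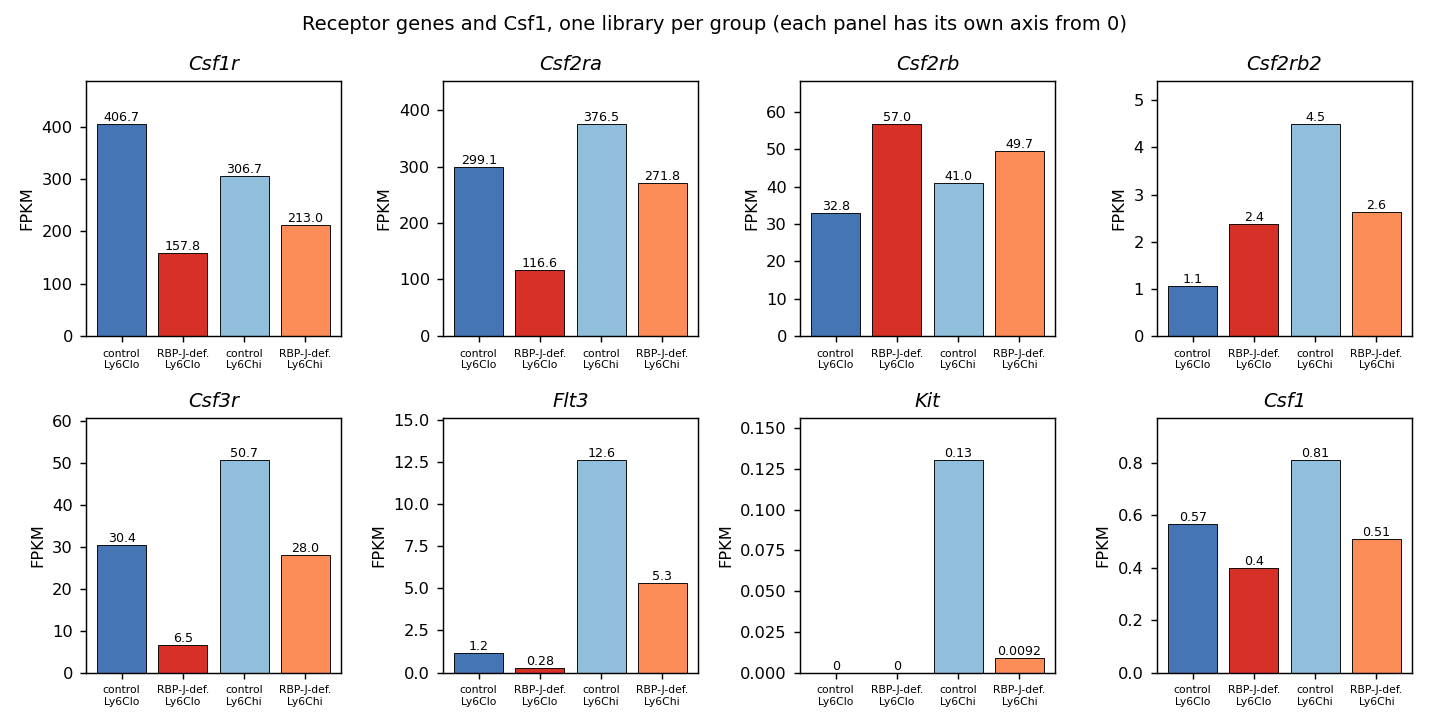
Deposited FPKM of each of the 8 genes (vertical axes, each starting at 0) in the 4 libraries, 1 bar per library and no error bars because each group has 1 library. *Csf1r*, *Csf2ra* and *Csf3r* have their lowest bar in RBP-J-deficient Ly6Clo monocytes (158, 117 and 6.50), where *Csf2rb* has its highest (57.0).

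*Csf1r*, at chr18:61105572-61131139 in the deposited table (mm10), encodes the receptor for CSF1 and IL-34. Its FPKM was 407 in control Ly6Clo, 158 in RBP-J-deficient Ly6Clo, 307 in control Ly6Chi and 213 in RBP-J-deficient Ly6Chi monocytes. Both deficient libraries lay below both control libraries, and the lowest value belonged to deficient Ly6Clo monocytes. On (FPKM + 1), the scale used for all ratios here, *Csf1r* was 2.57-fold lower in RBP-J-deficient than in control Ly6Clo monocytes (log2 ratio -1.36) and 1.44-fold lower in Ly6Chi monocytes (log2 ratio -0.52). Among expressed genes, 5.21% had a lower log2 ratio than *Csf1r* in the Ly6Clo comparison and 16.9% in the Ly6Chi comparison. *Csf1r* remained among the best detected genes even where it was lowest, with a level above that of 91.5% of expressed genes in deficient Ly6Clo monocytes, against 97.4% in control Ly6Clo monocytes. Between the subsets its order differed by genotype. The log2 ratio of Ly6Clo over Ly6Chi was 0.41 for control mice but -0.43 for deficient mice, a difference that could not be tested.

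*Csf1*, the ligand of this receptor (chr3:107741048-107760469), was nearly absent from the same cells, with an FPKM of 0.567 in control Ly6Clo, 0.398 in deficient Ly6Clo, 0.810 in control Ly6Chi and 0.509 in deficient Ly6Chi monocytes. Of the 8 ligand genes listed for these receptors, *Il34*, *Csf2*, *Csf3*, *Il3* and *Il5* were listed at 0 in all 4 libraries and *Kitl*, the gene of stem cell factor, reached at most 0.0827. Only *Flt3l*, which encodes FLT3 ligand, was an expressed gene, at 11.3 in control Ly6Clo, 7.49 in deficient Ly6Clo, 10.1 in control Ly6Chi and 10.1 in deficient Ly6Chi monocytes. Its log2 ratios of genotype were -0.54 in Ly6Clo and -0.01 in Ly6Chi monocytes. The genes of CSF1R processing and partnership, with *Adam17*, the protease that sheds the receptor, and the integrin chains *Itgav* and *Itgb3*, were found for 5 of 6 listed and expressed for 4, and none of the 4 was 2-fold apart between genotypes in either subset.

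*Csf2ra* (chr19:61224402-61228418) encodes the GM-CSF-binding alpha chain. Its FPKM was 299 in control Ly6Clo, 117 in RBP-J-deficient Ly6Clo, 377 in control Ly6Chi and 272 in RBP-J-deficient Ly6Chi monocytes. The deficient Ly6Clo library was again the lowest and the other 3 lay closer together. The gene was 2.55-fold lower in RBP-J-deficient than in control Ly6Clo monocytes (log2 ratio -1.35), close to the 2.57-fold of *Csf1r*, and 1.38-fold lower in Ly6Chi monocytes (log2 ratio -0.47). Subtracting the trend of the log2 ratios with transcript GC content took it under 2-fold in Ly6Clo monocytes, to -0.88, while *Csf1r* kept -1.08. The GC content of the longest transcript was 57.8% for *Csf2ra* and 54.5% for *Csf1r*. Within a library the level of *Csf1r* divided by that of *Csf2ra* was 1.36 in control and 1.35 in deficient Ly6Clo monocytes, and 0.815 and 0.784 in Ly6Chi monocytes, so this ratio differed more between the subsets than between the genotypes.

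The bases before a gene's start are shown for the 2 genes whose level was at least 2-fold lower in deficient Ly6Clo monocytes and for which the RefSeq promoter table (GRCm38.p6) was used, since RBP-J, the deleted protein, binds DNA. Of the 8 genes, 6 have a window there, and *Csf1r* and *Csf2rb* do not. Each sequence gives the 250 bases before the start of transcription, 5′ to 3′ along the gene's own strand, and capitals mark the letters TGGGAA, the core bound by RBP-J, and GAGGAA, a core bound by the myeloid factor PU.1, on either strand.
*Csf2ra*, chr19:61228419-61228668, minus strand: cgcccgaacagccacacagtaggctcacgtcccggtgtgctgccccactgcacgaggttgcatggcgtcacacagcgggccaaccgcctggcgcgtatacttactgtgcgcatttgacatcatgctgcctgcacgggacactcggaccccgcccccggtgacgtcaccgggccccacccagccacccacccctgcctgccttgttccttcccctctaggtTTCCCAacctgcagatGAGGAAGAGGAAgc
*Csf3r*, chr4:126024409-126024658, plus strand: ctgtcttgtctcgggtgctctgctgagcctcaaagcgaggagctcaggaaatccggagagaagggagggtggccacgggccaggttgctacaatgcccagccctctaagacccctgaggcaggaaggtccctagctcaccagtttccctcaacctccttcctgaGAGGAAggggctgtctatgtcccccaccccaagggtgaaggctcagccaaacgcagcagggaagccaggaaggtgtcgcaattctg

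The *Csf2ra* window held TGGGAA once, on the opposite strand, from 30 to 25 bases before the start, followed by GAGGAA back to back from 14 to 9 and from 8 to 3 bases before it. The *Csf3r* window held GAGGAA once, from 86 to 81 bases before the start, and no TGGGAA. Among the windows of the other members, GAGGAA stood once in those of *Kit* and *Csf2rb2*, and neither motif in those of *Flt3* and *Csf1*, so *Csf2ra* was the only one of the 6 with TGGGAA. The motif TTNNGNAA, a shape bound by C/EBP factors, was found only before *Csf2ra*, on the opposite strand from 31 to 24 bases before the start, where it overlaps TGGGAA. These letters are common, since TGGGAA occurred in 21.6%, GAGGAA in 23.3% and TTNNGNAA in 36.8% of all 32851 windows of this length. A match is a match of letters and no binding was measured.

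*Csf2rb* (chr15:78325990-78351001), the beta chain shared by the GM-CSF, IL-3 and IL-5 receptors, had an FPKM of 32.8 in control Ly6Clo, 57.0 in RBP-J-deficient Ly6Clo, 41.0 in control Ly6Chi and 49.7 in RBP-J-deficient Ly6Chi monocytes. Here both deficient libraries lay above both control libraries, opposite to *Csf1r* and *Csf2ra*. The gene was 1.71-fold higher in deficient Ly6Clo monocytes (log2 ratio 0.78) and 1.21-fold higher in deficient Ly6Chi monocytes (log2 ratio 0.27). Of all expressed genes 15.3% had a higher log2 ratio than *Csf2rb* in Ly6Clo monocytes, and after the GC trend was subtracted its own was 1.02, just past 2-fold. *Csf2rb2* (chr15:78282508-78305721), the IL-3-specific beta chain, was low throughout, at 1.06, 2.37, 4.51 and 2.63 in the same library order. Its highest level was in control and not deficient Ly6Chi monocytes, and its log2 ratio of genotype was 0.71 in Ly6Clo and -0.60 in Ly6Chi monocytes.

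How reads divide between these neighbouring genes is uncertain, because their transcripts are near copies of each other. Over 2628 aligned positions of their coding sequences (GENCODE M21, GRCm38), 95.2% were identical, and the longest identical run was 242 bases. Of all 100-base stretches of the *Csf2rb2* coding sequence, 11.3% also occurred in that of *Csf2rb*, and of all 50-base stretches 26.6% did. The first 90 coding bases are shown to let the likeness be seen, with the 3 bases that differ in capitals.
*Csf2rb*, within chr15:78335207-78336349, plus strand, introns left out: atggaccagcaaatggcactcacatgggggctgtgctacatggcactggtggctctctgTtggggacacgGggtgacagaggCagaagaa
*Csf2rb2*, within chr15:78297101-78298229, minus strand, introns left out: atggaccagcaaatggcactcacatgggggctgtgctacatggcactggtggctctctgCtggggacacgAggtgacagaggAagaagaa
*Csf2rb2* made up 3.12% of the FPKM of both beta chain genes in control Ly6Clo, 3.99% in deficient Ly6Clo, 9.91% in control Ly6Chi and 5.02% in deficient Ly6Chi monocytes. As the deposited values divide the reads, which is uncertain, *Csf2rb* held most of the beta chain FPKM in every library. Summing both genes left the direction of its genotype ratios as it was.

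The alpha and beta chains of the GM-CSF receptor differed in opposite directions, which left their proportion far apart between genotypes. This ratio was computed after the values of both genes had been seen. The FPKM of *Csf2ra* divided by that of *Csf2rb* and *Csf2rb2* together was 8.82 in control Ly6Clo monocytes against 1.97 in deficient ones. In Ly6Chi monocytes it was 8.27 in control and 5.19 in deficient cells. With *Csf2rb* alone, leaving out the IL-3-specific chain, it was 9.11 in control and 2.05 in deficient Ly6Clo monocytes. In Ly6Chi monocytes it was then 9.18 and 5.47. The control libraries of both subsets lay above both deficient libraries, and deficient Ly6Clo was the lowest of the 4. A ratio of 2 genes within a library does not depend on how that library was scaled, but it does not show which of the genes differed. Nor was it corrected for the GC trend, and the longest transcripts had a GC content of 57.8% for *Csf2ra* and 53.9% for *Csf2rb*. With that trend subtracted, their log2 ratios of genotype in Ly6Clo monocytes were -0.88 and 1.02, still in opposite directions. *Il3ra*, the alpha chain of the IL-3 receptor, had an FPKM of 3.91, 0.752, 7.63 and 3.01 in the order control Ly6Clo, deficient Ly6Clo, control Ly6Chi and deficient Ly6Chi. It was lower in the deficient library of both subsets, with log2 ratios of -1.49 and -1.10. *Il5ra*, the alpha chain of the IL-5 receptor, was listed at 0 in 3 libraries and at 0.0497 in control Ly6Clo monocytes.

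**Figure D2:**
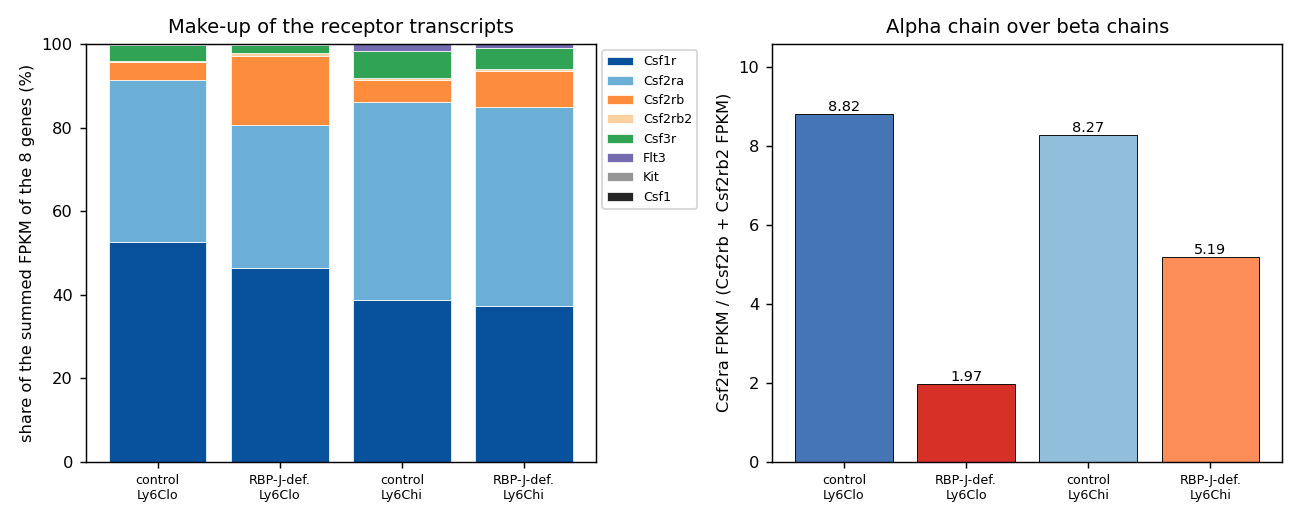
Left, share of each gene in the summed FPKM of the 8 genes (percent, stacked to 100) in each library. Right, FPKM of *Csf2ra* divided by the FPKM of *Csf2rb* and *Csf2rb2* together, 1 bar per library, from 0. *Csf2rb* takes 16.7% of the sum in RBP-J-deficient Ly6Clo monocytes against 4.26% in control Ly6Clo monocytes, and the chain ratio is 1.97 there against 8.82.

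*Csf3r* (chr4:126024659-126044975), the G-CSF receptor gene, had the largest genotype difference of the 8 genes in Ly6Clo monocytes. Its FPKM was 30.4 in control Ly6Clo, 6.50 in RBP-J-deficient Ly6Clo, 50.7 in control Ly6Chi and 28.0 in RBP-J-deficient Ly6Chi monocytes. The deficient Ly6Clo library was the only one under 10. The gene was 4.19-fold lower in deficient Ly6Clo monocytes (log2 ratio -2.07), with 1.28% of expressed genes lower still, and 1.78-fold lower in deficient Ly6Chi monocytes (log2 ratio -0.84), with 7.43% of expressed genes lower. Between subsets it was 1.64-fold lower in Ly6Clo than in Ly6Chi monocytes of control mice and 3.86-fold lower in deficient mice. Neutrophils are the cells best known for *Csf3r*, and 9 of 10 listed neutrophil genes were found, with an FPKM sum of 240 in control Ly6Clo, 170 in deficient Ly6Clo, 1525 in control Ly6Chi and 1200 in deficient Ly6Chi monocytes. Most of these sums came from *S100a8* and *S100a9*, which monocytes also make. The granule genes *Camp* and *Ngp* were listed at 0 or under 1 in every library except deficient Ly6Chi, where they had 5.52 and 4.87, and *Ltf* did not exceed 0.0202 in any library. *Mmp8*, which encodes a granule collagenase, was at 1.30 in control and 7.62 in deficient Ly6Clo monocytes. *Retnlg* was at 4.33 and 12.2, so both were at least 2-fold higher in the library where *Csf3r* was lowest. In Ly6Chi monocytes *Mmp8* was at 195 in control and 155 in deficient cells, and *Retnlg* at 35.1 and 24.4. Other genes of the list were lower in deficient Ly6Clo monocytes, with log2 ratios of -0.64 for *S100a8*, -0.58 for *S100a9*, -0.37 for *Cxcr2* and -0.29 for *Mmp9*. The part of these neutrophil genes in the value of *Csf3r* was not tested.

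*Flt3* (chr5:147330742-147400489) separated the subsets more than the genotypes. Its FPKM was 1.15 in control Ly6Clo, 0.280 in RBP-J-deficient Ly6Clo, 12.6 in control Ly6Chi and 5.32 in RBP-J-deficient Ly6Chi monocytes. Both Ly6Chi libraries were above both Ly6Clo libraries, and in each subset the deficient library was the lower. It was 6.32-fold lower in Ly6Clo than in Ly6Chi monocytes of control mice (log2 ratio -2.66), where 0.811% of expressed genes were lower still, and 4.94-fold lower in deficient mice (log2 ratio -2.31). The genotype ratio was -0.75 in Ly6Clo monocytes, at levels near 1 where the added 1 understates a difference, and -1.11, or 2.15-fold lower, in Ly6Chi monocytes, which adding 5 in place of 1 to the FPKM took under 2-fold. The 8 listed dendritic cell genes, *Flt3* among them, summed to 1024 in control Ly6Clo, 544 in deficient Ly6Clo, 2368 in control Ly6Chi and 1718 in deficient Ly6Chi monocytes, nearly all of it *H2-Ab1*, a class II histocompatibility gene. *Cd209a*, found on monocyte-derived and other dendritic cells, was at 41.8, 30.6, 182 and 139 in the same order, and the dendritic cell genes *Zbtb46*, *Xcr1*, *Clec9a* and *Siglech* were under 1 in all 4 libraries. The subset order of *Flt3* was thus shared with *H2-Ab1* and *Cd209a*, and their part in it was not tested.

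*Kit* (chr5:75574987-75656721) was listed at 0 in both Ly6Clo libraries, at 0.130 in control Ly6Chi and at 0.00919 in RBP-J-deficient Ly6Chi monocytes. Its ratios rest on values under 1 and are not read as differences. The 6 genes of mast cells and basophils summed to at most 1.08 and *Mpo*, a gene of myeloid progenitors, was listed at 0 in all libraries, whereas *Prtn3*, another progenitor gene, was listed at 0 in control Ly6Clo, 2.80 in deficient Ly6Clo, 29.5 in control Ly6Chi and 25.02 in deficient Ly6Chi monocytes.

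Set against all expressed genes, the receptors leaned to lower levels in RBP-J-deficient cells. In Ly6Clo monocytes 3 of the 6 expressed members, *Csf1r*, *Csf2ra* and *Csf3r*, were at least 2-fold lower than in control and none was 2-fold higher, while 11.1% of expressed genes were at least 2-fold lower and 8.97% at least 2-fold higher. The lower share was thus above the background, over only 6 genes, which were chosen with earlier results of these data known. The 0 of 6 that were higher cannot be told from 8.97%. With the GC trend subtracted, *Csf2ra* had -0.88 in Ly6Clo monocytes, under 2-fold. *Csf1r* then had -1.08, *Csf3r* -1.81 and *Csf2rb* 1.02, just past 2-fold higher. In Ly6Chi monocytes *Flt3* alone was past 2-fold, and lower, against a background of 4.56% lower and 2.64% higher, which 1 of 6 does not set apart. The median log2 ratio of the 6 members was -1.05 in Ly6Clo and -0.56 in Ly6Chi monocytes, beside medians of 0.02 and 0.00 over all expressed genes. Between the subsets, *Csf2rb2* and *Flt3* were at least 2-fold lower in Ly6Clo than in Ly6Chi monocytes of control mice and none was 2-fold higher, with backgrounds of 7.75% and 5.21%. In RBP-J-deficient mice *Csf2ra*, *Csf3r* and *Flt3* were at least 2-fold lower in Ly6Clo monocytes and again none was higher, with backgrounds of 10.6% and 8.41%. Subtracting the GC trend took *Csf2ra* under 2-fold there, to -0.82. The 4 comparisons use the same 4 libraries in a ring, so a low value in deficient Ly6Clo monocytes enters both the Ly6Clo genotype comparison and the subset comparison of deficient mice. Rescaling each library to the same total (TPM) took the median of expressed genes in the Ly6Clo genotype comparison from 0.02 to -0.22. It turned 919 higher and 1134 lower genes into 537 and 1813, because the FPKM totals were 717395 in control and 885650 in deficient Ly6Clo monocytes. On that scale *Csf1r* had -1.66, *Csf2ra* -1.66, *Csf3r* -2.38 and *Csf2rb* 0.48, so the members kept their directions there. The same rescaling gave 272 higher and 708 lower genes for genotype in Ly6Chi monocytes, 606 and 901 for subset in control mice, and 645 and 1582 for subset in deficient mice.

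**Figure D3:**
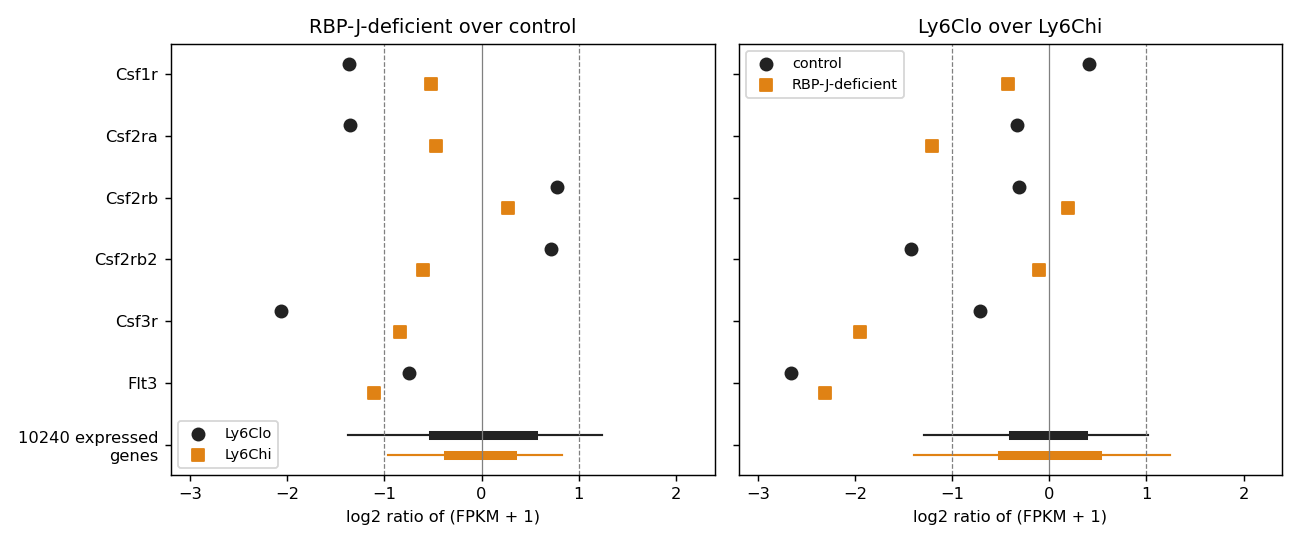
Log2 ratios for the 6 expressed members (rows), deficient over control in each subset on the left and Ly6Clo over Ly6Chi in each genotype on the right. Each point compares 2 single libraries, dashed lines mark 2-fold, and the bottom rows give the middle 50% (thick) and 90% (thin) of the 10240 expressed genes. *Csf3r* at -2.07 lies beyond the 5th percentile of -1.38 in Ly6Clo monocytes, where *Csf1r* at -1.36 and *Csf2ra* at -1.35 lie just inside it.

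The genes around the receptors were counted from 6 lists, which were chosen with earlier results of these data known. Of 23 signalling genes, 22 were expressed. In Ly6Clo monocytes 4 of the 22 were at least 2-fold lower in deficient cells and none higher, beside 11.1% of all expressed genes lower. Rescaled to TPM, 9 of the 22 were lower, beside 1813 of the 10240 expressed genes. Among the 4 were *Stat3* (log2 ratio -1.71), which transmits the G-CSF signal, the adaptor *Shc1* (-1.25) and the kinase *Mapk3* (-1.22). *Stat3* had an FPKM of 132 in control Ly6Clo, 39.6 in deficient Ly6Clo, 105 in control Ly6Chi and 74.4 in deficient Ly6Chi monocytes. *Jak2*, the kinase bound to the beta chain, had log2 ratios of 0.65 and 0.75 in Ly6Clo and Ly6Chi monocytes, and *Stat5a* had 0.72 and 0.14. *Stat5b*, of the same list, went the other way, with -0.88 and -0.43. *Jak2*, *Stat5a* and *Stat5b* were all within 2-fold between genotypes. The list's median was -0.43 in Ly6Clo and -0.10 in Ly6Chi monocytes.

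Of 15 listed genes that restrain these receptors, 13 were expressed. In deficient Ly6Clo monocytes 7 of the 13 were at least 2-fold lower, where 11.1% of expressed genes were. When 5 in place of 1 was added to the FPKM, 4 of the 13 were, beside 457 of the 10240 expressed genes. *Dusp5* (-2.47) and *Dusp6* (-2.42) encode phosphatases that switch off MAP kinases, *Socs3* (-2.25) and *Socs1* (-1.85) encode inhibitors of JAK signalling that cytokines induce, and *Dok1* (-1.59), *Inpp5d* (-1.22) and *Sh2b3* (-1.03) encode an adaptor, the lipid phosphatase SHIP1 and the adaptor LNK. *Spry2* was the only member of the list at least 2-fold higher (1.26), from an FPKM of 0.549 to 2.70. *Socs3* had an FPKM of 33.9 in control Ly6Clo, 6.35 in deficient Ly6Clo, 25.8 in control Ly6Chi and 8.67 in deficient Ly6Chi monocytes, so both deficient libraries lay below both controls. The same held for *Dusp6*, at 222, 40.8, 254 and 105 in the same library order, though its 2 controls were the other way round. In Ly6Chi monocytes 4 of the 13 were at least 2-fold lower, *Sh2b3* (-1.62), *Socs1* (-1.57), *Socs3* (-1.47) and *Dusp6* (-1.26), and none was higher, beside 4.56% of expressed genes lower and 2.64% higher. The median of the list was -1.03 in Ly6Clo and -0.56 in Ly6Chi monocytes, and the former was -0.66 with 5 added and -0.78 with the GC trend subtracted.

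Among receptors that share a chain or family with the members, 8 of 12 were expressed, and in Ly6Clo monocytes *Il3ra* was at least 2-fold lower and *Ifnar1*, a chain of the type I interferon receptor, at least 2-fold higher, at 27.3 in control and 96.1 in deficient cells (log2 ratio 1.78). In Ly6Chi monocytes *Il3ra* alone passed 2-fold. These counts are near the backgrounds given for all expressed genes, and *Il3ra* came under 2-fold in both subsets with the GC trend subtracted or with 5 added. The medians of this list were -0.35 and -0.32. Of 14 transcription factors known to act on the *Csf1r* locus, 11 were expressed. *Spi1*, which encodes PU.1, had an FPKM of 903 in control Ly6Clo, 211 in deficient Ly6Clo, 851 in control Ly6Chi and 442 in deficient Ly6Chi monocytes. It was lower in both deficient libraries, with log2 ratios of -2.09 and -0.94. *Jun*, an AP-1 subunit, was lower as well (-1.77 and -1.02), *Fli1*, an ETS factor, was higher in Ly6Clo monocytes (1.89), and *Cebpb* was lower in Ly6Chi monocytes (-1.04) and had 0.25 in Ly6Clo monocytes. The list had 1 gene higher and 2 lower past 2-fold in Ly6Clo monocytes, none higher and 2 lower in Ly6Chi monocytes, and medians of -0.43 and -0.56. Over 11 genes these counts are not set apart from the backgrounds of 8.97% and 11.1% in Ly6Clo and of 2.64% and 4.56% in Ly6Chi monocytes. With TPM 4 of the 11 were lower in Ly6Clo monocytes, beside 1813 of the 10240 expressed genes. With the GC trend subtracted 3 of the 11 were lower in Ly6Clo monocytes, beside 995 of the expressed genes. In Ly6Chi monocytes none was then, beside 377 of the expressed genes.

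**Figure D4:**
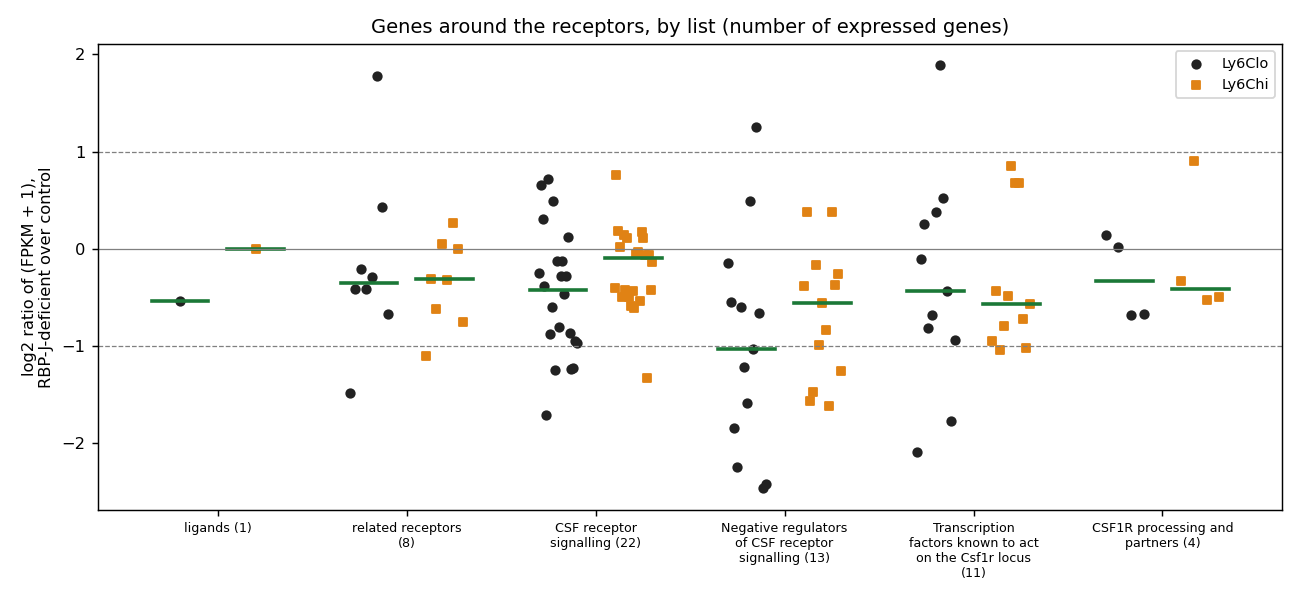
Log2 genotype ratio (deficient over control, of FPKM + 1) of the expressed genes of the 6 lists (numbers in brackets), black circles for Ly6Clo and orange squares for Ly6Chi monocytes, each point a gene compared between 2 single libraries. Green bars are list medians and dashed lines mark 2-fold, and the negative regulators have medians of -1.03 and -0.56.

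The shape of each receptor's profile over the 4 libraries was compared with that of the 7255 genes that reached an FPKM of 5 in at least 1 library, by the Euclidean distance between log2(FPKM + 1) values centred on each gene's mean. Nearest to *Csf1r* were *L3mbtl2* (distance 0.07), *Dgat1* (0.09) and *Zbtb2* (0.11), nearest to *Csf2ra* were *Ppp2r4* (0.04), *Aaed1* (0.08) and *Grina* (0.08), and nearest to *Csf2rb* were *Rpl23* (0.03), *Ndufb11* (0.04) and *Eif1ax* (0.06). *Csf3r* was closest to *Lars2* (0.09), *Ppox* (0.12) and *Abhd4* (0.14), and *Flt3* to *B3gnt8* (0.16), *Aldh1b1* (0.23) and *Lsr* (0.33). How common a shape was differed widely, since 1387 genes lay within 0.5 of *Csf2rb*, 407 of *Csf2ra*, 356 of *Csf1r*, 65 of *Csf3r* and 12 of *Flt3*. *Csf1r* and *Csf2ra* were 0.76 apart, *Csf2ra* and *Csf3r* 0.80, and *Spi1* was 0.68 from *Csf2ra*, 0.76 from *Csf1r* and 0.85 from *Csf3r*. Many genes lay nearer, since *Spi1* ranked 812th from *Csf2ra*, 1114th from *Csf1r* and 242nd from *Csf3r*, and *Csf2ra* 1100th from *Csf1r*. *Csf2rb* was at least 1.61 from *Csf1r*, *Csf2ra*, *Csf3r* and *Spi1*.

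**Figure D5:**
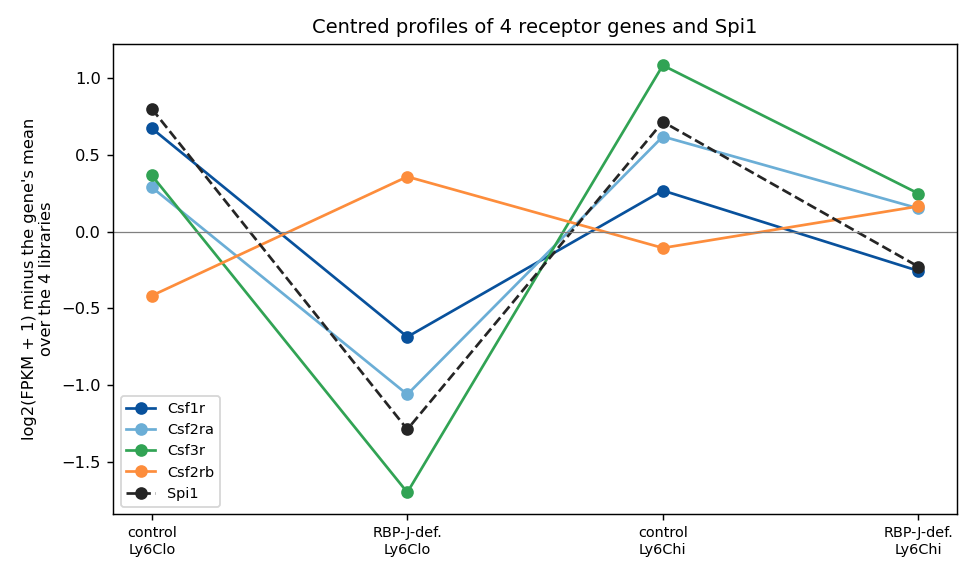
Log2(FPKM + 1) minus the gene's mean over the 4 libraries (vertical axis) for *Csf1r*, *Csf2ra*, *Csf3r*, *Csf2rb* and *Spi1* in each library, 1 point per library, with lines only to join the points of a gene. *Csf1r*, *Csf2ra*, *Csf3r* and *Spi1* have their lowest point in RBP-J-deficient Ly6Clo monocytes (-0.69, -1.06, -1.70 and -1.29), where *Csf2rb* has its highest (0.36).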

How the data were processed

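RNA-seq of 4 blood monocyte libraries, 1 per subset and genotype, was analysed from a single table in which the authors deposited FPKM values for all 6 pairs of libraries. The submitters' processing notes name CASAVA 1.8, TopHat2 2.1.0, Cufflinks 2.2.1 and the mm10 build, without their roles. The table also holds the authors' fold changes, p-values and q-values, which were not used. Samples were grouped by title. Rows sharing a symbol were summed over loci, and 11 genes with more than 1 value per library were averaged. The deposited *Actb* value is 0 in the deficient libraries, so 0 was not read as absence. No estimate of the 8 genes failed. Read counts were not used here, so no interval is given.

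Log2 ratios of (FPKM + 1) were computed between single libraries, with no test. Genes that reached an FPKM of 1 in some library counted as expressed. The 8 genes, the gene lists, the marker lists and the thresholds were chosen with earlier results of these data known. List genes are named when at least 2-fold apart in some comparison or needed for a role (1 signalling gene is not reported here), and the 3 nearest profiles are named per gene. The GC trend was a lowess fit (fraction 0.3, 3 iterations) on 6086 genes whose mean FPKM reached 5, and 94.9% of expressed genes had a GC content. Promoter windows came from RefSeq, coding sequences from GENCODE M21. The steps were tested on simulated data. Python 3.11.15, pandas 2.3.3, numpy 2.4.6, statsmodels 0.14.6 and biopython 1.88 were used. Alternatives covered the pseudocount, scaling, GC trend, fold threshold, filter and the summing of the beta chain genes.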

Additional observations from a re-analysis of the deposited data

Results flagged for a closer look

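For 3 of the receptor genes the single libraries pointed in opposite directions in the paired comparisons, and none of these differences could be tested with 1 library per group. *Csf2rb2* had a log2 ratio of genotype of 0.71 in Ly6Clo and -0.60 in Ly6Chi monocytes, at FPKM levels of 1.06 to 4.51 and with a near copy next to it. *Csf1r* had a log2 ratio of Ly6Clo over Ly6Chi of 0.41 for control mice but -0.43 for deficient mice. *Csf2rb* had -0.31 for control mice but 0.19 for deficient mice, and rescaling to TPM took the latter to -0.02.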

How the results depend on the processing

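No paired analysis was possible because each group has 1 library, and for the same reason no library could be left out. No result reversed among called values. Of 80 recomputed counts of members past 2-fold, 68 stayed within 1.5 times the reported count. The 12 that did not were these, and the cause was not tested unless named. The Ly6Clo genotype count of higher members was 1 with a pseudocount of 0.1 and 1 with the GC trend subtracted (*Csf2rb*), in place of 0, and 2 at 1.5-fold, a lower threshold. Among expressed genes, 1305 were higher with that pseudocount and 819 with the GC trend subtracted, against 919 as reported. With the thresholds of the study's methods, 5.7 and 0.2, which are stricter, the counts of lower members were 0 for genotype in Ly6Clo, 0 for genotype in Ly6Chi, 1 for subset in control and 0 for subset in RBP-J-deficient mice. The Ly6Chi genotype count of lower members, 1 as reported, was 2 when 0.1 was added to the FPKM, 0 when 5 was added and 3 at 1.5-fold. Among expressed genes, 933 were lower when 0.1 was added and 101 when 5 was, against 467 as reported. The count of lower members for subset in control mice, 2 as reported, was 1 with a pseudocount of 5 and 1 with *Csf2rb* and *Csf2rb2* summed, since *Csf2rb2* then has no entry of its own. With a pseudocount of 5, 365 expressed genes were lower there, against 794 as reported. Counts of all expressed genes at 1.5-fold and at the study's thresholds are not given here, so the member counts at those thresholds have no background. Of 200 recomputed member log2 ratios, 181 moved little and 19 moved, among them *Csf2ra* in the subset comparison of deficient mice, at -0.82 with the GC trend subtracted against -1.21. Rescaling to TPM after leaving out *Actb* was chosen after seeing the data and gave *Csf1r* -1.72 in Ly6Clo monocytes. Of 432 recomputed counts of gene lists 85 moved, and of 168 list medians 5 did. Unknown depth limits the values of *Kit*, *Csf1*, *Csf2rb2* and of *Flt3* in Ly6Clo monocytes most.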
